A study of Mus musculus with 6 samples.

Results

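Dense clusters of distal open regions were 252 stretches of the autosomes in which at least 3 widely shared accessible regions lay close together in long-term haematopoietic stem cells. Peaks of 6 ATAC-seq lists were merged by an overlap of at least 1 bp. Regions called in 5 or 6 lists and over 2 kb from both ends of every protein-coding gene were kept, and kept regions with gaps of at most 12.5 kb were joined. Of 7744 joined groups, 6627 held 1 region, 865 held 2, and 252 held 3 or more. These 252 are called domains here, and they took in 836 of the 9193 kept regions (9.09%). Members were chosen by the calls in these lists, so their calls, and the values that rest on them, are given as a description, without a test.

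The cells came from C57BL/6 bone marrow, from 3 aged and 3 young samples, with no genotype or treatment named for either age. They had been sorted as lineage-negative, Kit-positive and Sca1-positive cells without Flk2 and Cd34, and both ages spent a night at 3% oxygen in a buffered salt solution with serum. Ages in weeks and sexes were not given in the labels, nor whether each sample was a single animal, so the spread between lists may be technical. Lists held 107804 to 252914 autosomal peaks, and the sources used here give no read depth. Sample titles also hold a number that the labels do not explain. It is 2500 in both replicates 2 and 5000 in both replicates 3, but differs within replicates 1, where the aged title has 10000, and its part in the calls was not tested. Among 9 stem-cell markers, 4 (Kit, Procr, Meis1 and Hlf) had a peak within 1 kb of a gene end in all 6 lists. The same held for 1 of 5 myeloid markers (Mpo) and for 0 of 4 markers each of B cells, T and NK cells, erythroid cells, and endothelial and stromal cells. No marker of any of these types was uncalled in every list.

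ATAC-seq uses a transposase that inserts into accessible DNA, so a peak marks a stretch that proteins leave open. Enhancers, which raise transcription from a distance, are accessible when factors bind them, and regulators of cell identity in many tissues have several enhancers side by side. Tal1 and Fli1, for instance, are controlled by several enhancers each in blood cells. Histone marks and RNA were not analysed here, so the domains are stretches of shared accessibility and no more.

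Of the member regions, 71 (8.49%), in 69 domains, overlapped the 250 bases before a RefSeq transcription start on GRCm38.p6. The share was 10.5% over all kept regions. Overlap after a start, or further before it, was not counted, so other members may also lie near one. In 49 of the 71 the start belonged to a protein-coding gene, and in the other 22 to non-coding genes. The following 6 stretches of 250 bases, each wholly inside a member region, show what such regions look like in domains described below, and were picked after their values were seen. Each reads from 5′ to 3′ in the direction of the gene and ends at its start. Capitals mark letters searched on both strands: GGAAGT, which ETS factors read, TGTGGT for RUNX factors, TGANTCA for AP-1, GGGCGG for KLF and SP factors, CAGNTG for E-box factors and AGATAA for factors of the Gata family.
Arhgef3 chr14:27335787-27336036 (plus strand): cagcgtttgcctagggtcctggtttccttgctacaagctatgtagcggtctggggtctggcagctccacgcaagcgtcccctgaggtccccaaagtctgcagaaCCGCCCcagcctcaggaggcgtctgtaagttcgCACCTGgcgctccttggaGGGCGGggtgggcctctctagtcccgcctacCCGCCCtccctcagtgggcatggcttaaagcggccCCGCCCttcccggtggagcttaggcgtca
Ldb1 chr19:46045312-46045561 (minus strand): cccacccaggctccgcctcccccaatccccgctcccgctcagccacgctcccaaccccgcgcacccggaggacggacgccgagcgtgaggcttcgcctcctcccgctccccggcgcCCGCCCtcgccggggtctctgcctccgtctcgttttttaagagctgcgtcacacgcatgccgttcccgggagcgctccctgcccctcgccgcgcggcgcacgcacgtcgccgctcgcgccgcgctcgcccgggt
Ldb1 chr19:46039622-46039871 (minus strand): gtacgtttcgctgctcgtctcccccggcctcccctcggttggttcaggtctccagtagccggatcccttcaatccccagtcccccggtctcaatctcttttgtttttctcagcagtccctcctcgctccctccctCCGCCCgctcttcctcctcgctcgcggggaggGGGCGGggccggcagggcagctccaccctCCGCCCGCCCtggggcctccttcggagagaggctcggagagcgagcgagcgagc
G430095P16Rik chr8:84722807-84723056 (plus strand): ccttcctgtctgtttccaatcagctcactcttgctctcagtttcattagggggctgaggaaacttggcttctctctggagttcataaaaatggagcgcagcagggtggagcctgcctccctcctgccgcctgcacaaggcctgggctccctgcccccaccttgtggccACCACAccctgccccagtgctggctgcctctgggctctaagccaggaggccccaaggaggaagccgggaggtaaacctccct
Gm32287 chr2:167777415-167777664 (minus strand): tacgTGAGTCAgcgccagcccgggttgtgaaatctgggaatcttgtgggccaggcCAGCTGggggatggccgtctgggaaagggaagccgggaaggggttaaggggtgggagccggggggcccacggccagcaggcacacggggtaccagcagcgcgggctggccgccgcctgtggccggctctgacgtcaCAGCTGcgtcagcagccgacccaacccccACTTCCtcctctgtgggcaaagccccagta
Gm52920 chr6:134186514-134186763 (minus strand): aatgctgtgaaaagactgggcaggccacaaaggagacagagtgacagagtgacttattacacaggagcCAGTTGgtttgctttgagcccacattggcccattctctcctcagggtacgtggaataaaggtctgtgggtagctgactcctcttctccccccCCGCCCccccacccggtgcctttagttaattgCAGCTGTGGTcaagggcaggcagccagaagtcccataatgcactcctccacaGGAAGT
The stretches differ in base composition, from 54.4% G and C before Gm52920 to 76% before the upstream start of Ldb1. The Arhgef3 stretch holds GGGCGG 4 times and an E-box once, and the inner Ldb1 stretch holds GGGCGG 4 times and none of the other motifs. Before Gm52920, a non-coding gene inside Etv6, there are letters of ETS, RUNX, E-box, and KLF and SP factors. The G430095P16Rik stretch, inside Nfix, holds a single RUNX match.

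Over all 89 such stretches that touched a member region, the median content of G and C was 60.4%, beside 52.4% over 31396 autosomal stretches of the same length, and the median number of CpG was 10 beside 6. GGGCGG stood in 49 of the 89 (55.1%), beside 33.0% of all stretches. GGAAGT was found in 24.7% beside 19.8%, TGTGGT in 19.1% beside 14.0%, and TGANTCA in 10.1% beside 6.77%. AGATAA (8.99% beside 9.94%) and CAGNTG (41.6% beside 44.9%) were at or under the share of all stretches. Those 31396 were taken whether or not they were accessible. Stretches at kept regions outside domains were not compared, so nothing particular to domains is read from the base content or these shares. Several of the 89 overlap each other, letters of one motif can lie within those of another, and a match says only that the letters are there. Sequence of the remaining member regions was not analysed here.

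Most domains were at or near the smallest number of regions. There were 196 with 3 regions, 38 with 4, 13 with 5, 4 with 6 and 1 with 7. Their length varied more, with a median span of 15644 bp (2751 to 42807). Member regions covered a median of 13.3% of the span (5.87% to 75.9%), so the greater part of a typical domain lay outside member regions. Gaps between neighbouring members had a median of 5835.5 bp and reached 12489 bp, just inside the limit, while the closest gap left unjoined was 12504 bp. The member nearest to a gene end lay 2008 bp away, and the nearest region left out for closeness to a gene end lay 2000 bp away. The mean strength percentile over the lists had a median of 74.2 over regions in pairs, 74.8 over regions in domains of 3 and 75.8 over those in domains of 4. Percentiles here are ranks of a peak's −log10 p within its own list, from 0 to 100, and a region without a call counts as 0. A percentile thus also depends on how many weaker peaks its list holds.

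Chromosome 2 held the most domains (29), followed by chromosome 7 (22) and chromosome 8 (21). Of the kept regions of chromosome 8, 15.2% were in domains, against 4.84% for chromosome 1. Genes overlapped by the domains were long, in part by construction: members lie over 2 kb from both gene ends, and longer genes offer more such room. Their lengths were not compared with those of genes at lone regions. Of the 252, 117 lay wholly inside a protein-coding gene, 40 overlapped one in part and 95 overlapped none. The 162 overlapped genes had a median length of 64.4 kb, against 17.5 kb for all 20665 autosomal protein-coding genes. For the 95 domains outside genes, the nearest gene lay a median of 20750 bp away, and 47 of them were within 20 kb of one. Gse1 held 3 domains, and Itgb3, Nol4l and Pik3cd held 2 each.

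Calls were unequal among the lists before any comparison by age. Aged replicates 1, 2 and 3 called 824, 833 and 676 of the 836 member regions. Young replicates 1, 2 and 3 called 811, 549 and 834. Young replicate 2 (65.7%) and aged replicate 3 (80.9%) stood apart from the other 4 lists, at 97.0% to 99.8%. All kept distal regions behaved alike, at 98.5%, 99.7% and 76.8% in the aged and 98.1%, 64.8% and 99.6% in the young lists, so the low calls were not limited to domains. Since the rule allowed 1 missing list, 489 members were called in 5 lists, and in 287 of these young replicate 2 was the one missing, in 160 aged replicate 3. The other 347 members (41.5%) were called in all 6 lists, beside 37.4% of all kept regions. The rule used these calls, and nothing is read from the difference.

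**Figure D1:**
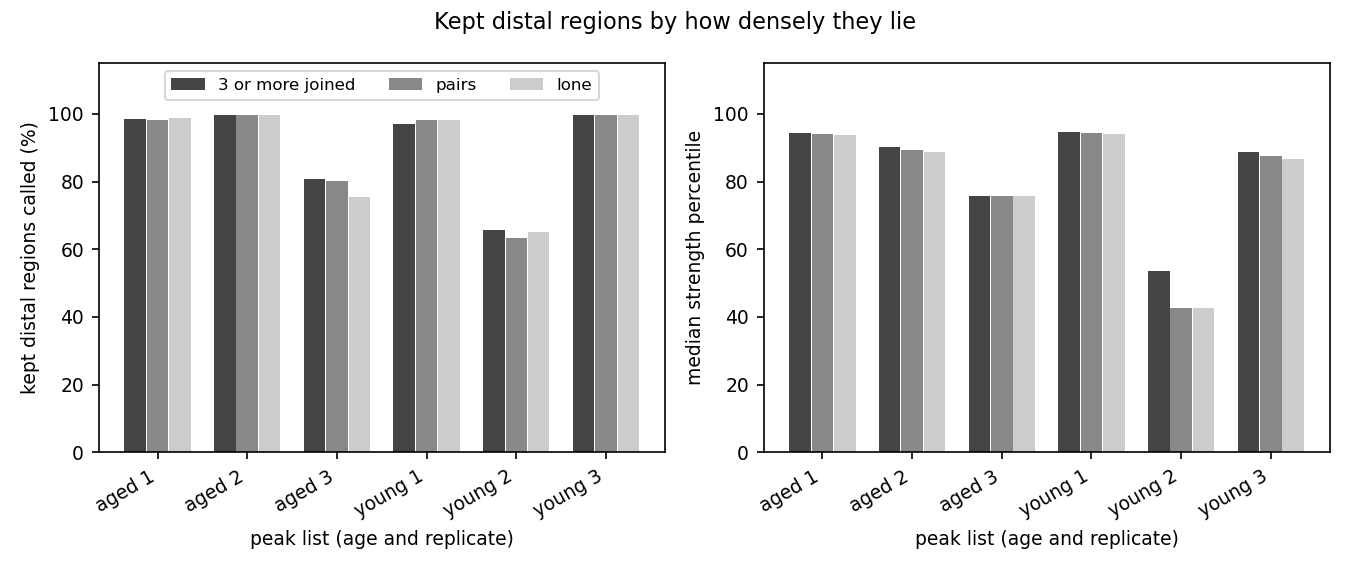
Percentage of kept distal regions called (left) and their median strength percentile (right, no call = 0) in each of the 6 lists, for the 836 regions in domains, the 1730 in pairs and the 6627 lone regions. Young replicate 2 and aged replicate 3 are lowest for all kinds. Within a list the bars are close in height except for the percentile in young replicate 2 (53.5 in domains, 42.7 in pairs and for lone regions).

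In most measures regions in domains lay close to lone ones. Median widths were 586.5 bp in domains, 584.5 bp in pairs and 604 bp for lone regions. The share inside a protein-coding gene was 55.9%, 59.2% and 54.1%. The median strength percentile was 94.2 in domains and 93.9 for lone regions in aged replicate 1, and 88.6 and 86.7 in young replicate 3. In young replicate 2 it was 53.5 against 42.7, where that list's strengths take few values and many peaks are tied. Within a domain the members were unequal: their mean percentiles ranged over a median of 24.5 points from weakest to strongest.

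The domain with the most regions, 7, lay between Dnajb12, a co-chaperone gene of the endoplasmic reticulum, and Ddit4, a stress-induced inhibitor of the mTOR pathway (chr10:59907761-59944107). It began 8465 bp from Dnajb12 and ended 5568 bp from Ddit4. Aged replicate 3 and young replicate 2 called 5 of the 7 regions each, and the other 4 lists called all 7. The median percentile of its regions was 96.2, 92.5 and 90.9 in the aged and 95.7, 31.6 and 90.4 in the young lists. Only young replicate 2 was low, and the ages overlapped. Gm40673, a non-coding RNA gene, overlapped 3 of the 7 regions.

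Domains of 6 regions numbered 4, and 2 of them lay on chromosome 8. One was inside Nfix, a factor of the nuclear factor I family that supports blood stem cells after transplantation (chr8:84712128-84744648). Its edge was 7412 bp from Lyl1, a basic helix-loop-helix factor of blood stem cells. The aged lists gave 95.8, 93.8 and 88.2 and the young lists 96.8, 33.0 and 93.1, again low in young replicate 2 alone. Its first region, from 84712128 to 84713014, had percentiles of 99.1, 95.4 and 92.0 in the aged and 99.4, 57.4 and 95.5 in the young lists, and the G430095P16Rik stretch printed above lies in the next region. At the other end, the region from 84744056 to 84744648 was strongest in young replicate 2 (99.1), was not called in aged replicate 3, and lay between 62.4 and 79.9 in the other 4 lists. A single domain thus did not rise and fall as a block.

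The other 3 with 6 regions were Csk, Nanos3 to Zswim4, and Arhgef3. Csk encodes the kinase that restrains Src-family kinases, and 5, 6 and 5 of its regions were called in the aged and 6, 5 and 6 in the young lists (chr9:57637793-57656208). Between Nanos3, an RNA-binding protein of germ cells, and Zswim4, all 6 regions were called in every list except young replicate 2, which called 2 (chr8:84187204-84208135). Arhgef3 held 6, 6 and 4 calls in the aged and 6, 3 and 6 in the young lists (chr14:27317186-27355480). The Arhgef3 stretch printed above lies in its region from 27335724 to 27336512, at percentiles of 98.2, 91.9 and 92.8 in the aged and 82.0, 55.5 and 91.3 in the young lists.

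Domains of 5 regions numbered 13. Gse1, which encodes a chromatin-associated protein, had the strongest of them, at 98.4, 96.4 and 96.7 in the aged and 97.1, 96.6 and 96.6 in the young lists, although aged replicate 3 called 3 of the 5 (chr8:120363715-120383101). The domain over Rhof, a small GTPase, and Setd1b, a histone H3 lysine methyltransferase, was higher in young replicates 1 and 2 (96.1 and 96.6) than in the other lists (82.7 to 88.0). Smad3, which carries TGF-beta signals to the nucleus, gave 95.8, 96.6 and 33.2 in the aged and 96.6, 61.5 and 94.5 in the young lists. In that case aged replicate 3 was the lowest. Nbeal2, needed for the granules of platelets, shared a domain with Ccdc12 that was fully called in 5 lists and had 2 of 5 regions called in young replicate 2.

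**Figure D2:**
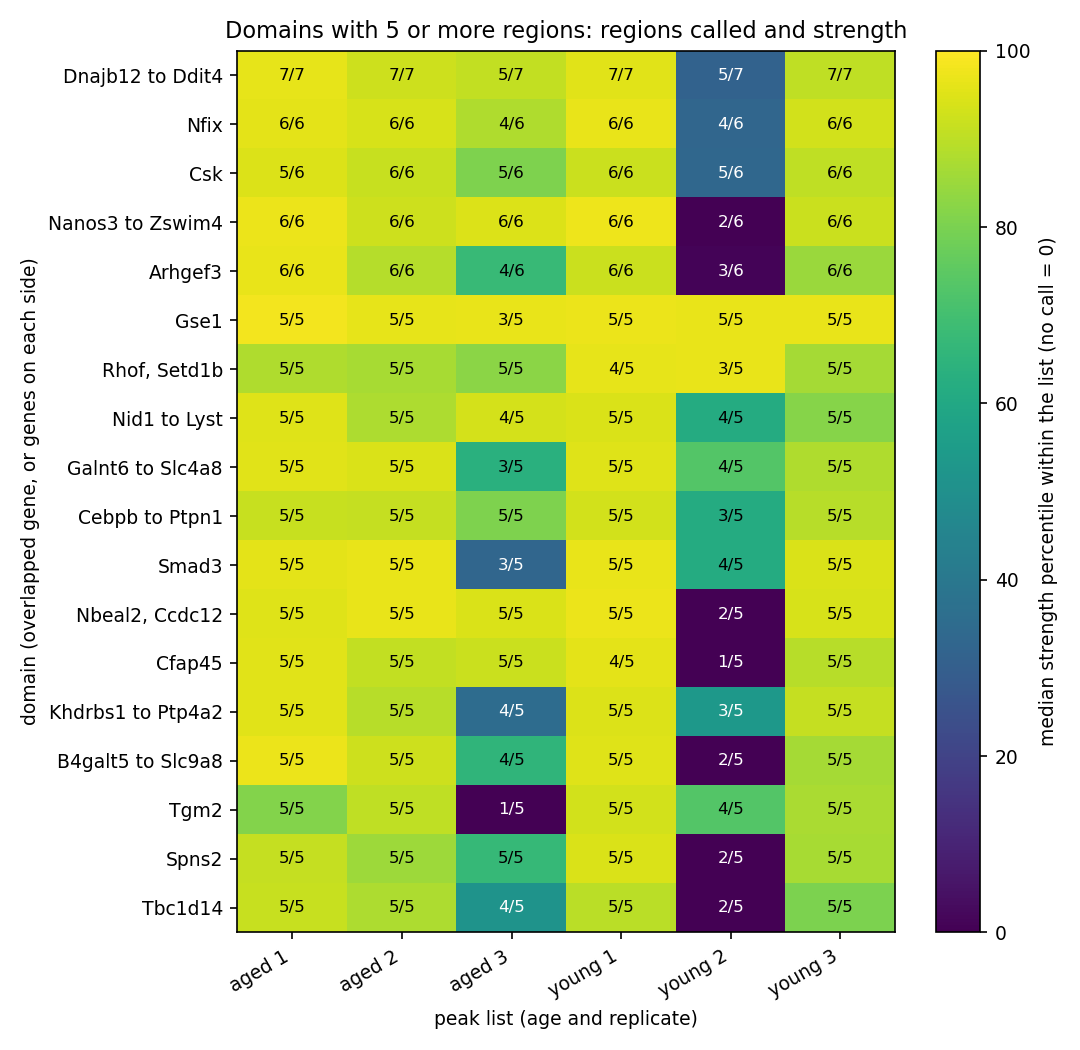
The 18 domains with 5 or more regions (rows, named by the genes they overlap or lie between) in the 6 lists (columns). Colour gives the median strength percentile of the domain's regions in that list and the printed ratio gives regions called of regions in the domain. Dark cells fall in the columns of young replicate 2 and aged replicate 3.

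Genes known from blood stem cells were followed through 8 lists of genes, chosen with earlier results of these data known. A gene counted if a domain overlapped it or if it was the next protein-coding gene on either side of a domain, at whatever distance, which held for 3.07% of all autosomal protein-coding genes. Among stem-cell regulators 8 of 29 counted: Tal1, Fli1, Etv6, Prdm16 and Nfix were overlapped, and Lyl1, Gfi1 and Myb were neighbours. Surface and signalling genes of stem cells gave 6 of 20, with Itgb3 overlapped and Kit, Cxcr4, Itga6, Cd9 and Thy1 as neighbours. Lower counts came from the myeloid (1 of 17, Cebpb), erythroid and megakaryocyte (1 of 15, Zfpm1), lymphoid (2 of 21, Gata3 and Ets1), growth control (1 of 18, Ccnd3) and other-tissue lists (1 of 20, Kdr). Genes with RNA known to be higher in aged stem cells gave 2 of 17, Itgb3 and Jam2. The remaining regulators, among them Meis1, Runx1, Erg and Gata2, were neither overlapped by a domain nor next to one. The lists were not matched for gene length, so the counts are a description.

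Tal1 encodes a basic helix-loop-helix factor needed to form and maintain blood stem cells. Its domain held 4 regions (chr4:115047584-115076070), and 3, 4 and 3 were called in the aged and 4, 4 and 4 in the young lists. At the far end, the region from 115075444 to 115076070 was called everywhere, at 99.5, 92.8 and 85.4 in the aged and 96.7, 98.6 and 96.0 in the young lists. The first 2 regions were at 8.61 and 4.07 in young replicate 2, so its calls there were weak ones. An end of Tal1 itself was called in all 6 lists. The domain was lost, with under 3 regions joined, at a 5 kb gap, at over 5 kb from gene ends, with peaks at q 0.05, with windows around summits and with calls asked in all 6 lists.

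Myb, a factor that sustains proliferating blood progenitors, lay 40822 bp from a domain of 4 regions that overlapped the neighbouring gene Ahi1 in part (chr10:21054645-21084108). The domain stood at 95.5, 92.3 and 95.2 in the aged and 97.9, 75.1 and 90.9 in the young lists. Its first region, from 21054645 to 21055481, was at 96.7 or above in all 6 lists. Gfi1, a repressor that restrains stem-cell cycling, lay 23584 bp from 3 regions inside Evi5 (chr5:107749389-107768600). The middle one, from 107759022 to 107759702, was at 99.6 or above in every list, and the domain's medians were 95.3, 93.8 and 92.8 in the aged and 98.3, 88.8 and 93.8 in the young lists. In both, strong and weak calls lay side by side, and no list called fewer than 2 of the regions.

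At Etv6 and Prdm16 the list that stood apart was young replicate 2. Etv6, an ETS-family repressor that blood stem cells need in adult marrow, had 3 regions called in the other 5 lists and 1 in that list (chr6:134186269-134202670). The Gm52920 stretch printed above lies in its first region, at 99.3, 98.4 and 94.2 in the aged lists and 99.4, no call and 97.2 in the young lists. Prdm16, a zinc-finger regulator of stem-cell maintenance, also had 1 of 3 regions called in young replicate 2, and that one stood at 98.6 there (chr4:154518895-154542105). Fli1, another ETS factor of blood stem cells, showed the opposite list out: 0 of its 3 regions were called in aged replicate 3 and all 3 in the other lists (chr9:32506177-32510103). Its medians were 90.7, 83.7 and 0 in the aged and 83.5, 61.5 and 80.1 in the young lists, and all 3 regions took the same tied value in young replicate 2. At q 0.05 the domains of Fli1 and Prdm16 were lost, and with a 5 kb gap those of Prdm16 and Etv6. The domains of Fli1, Prdm16, Etv6, Nfix, Ahi1 and Evi5 were all lost when calls in all 6 lists were asked, and those of Ahi1 and Evi5 also at a 5 kb gap and at over 5 kb from gene ends.

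**Figure D3:**
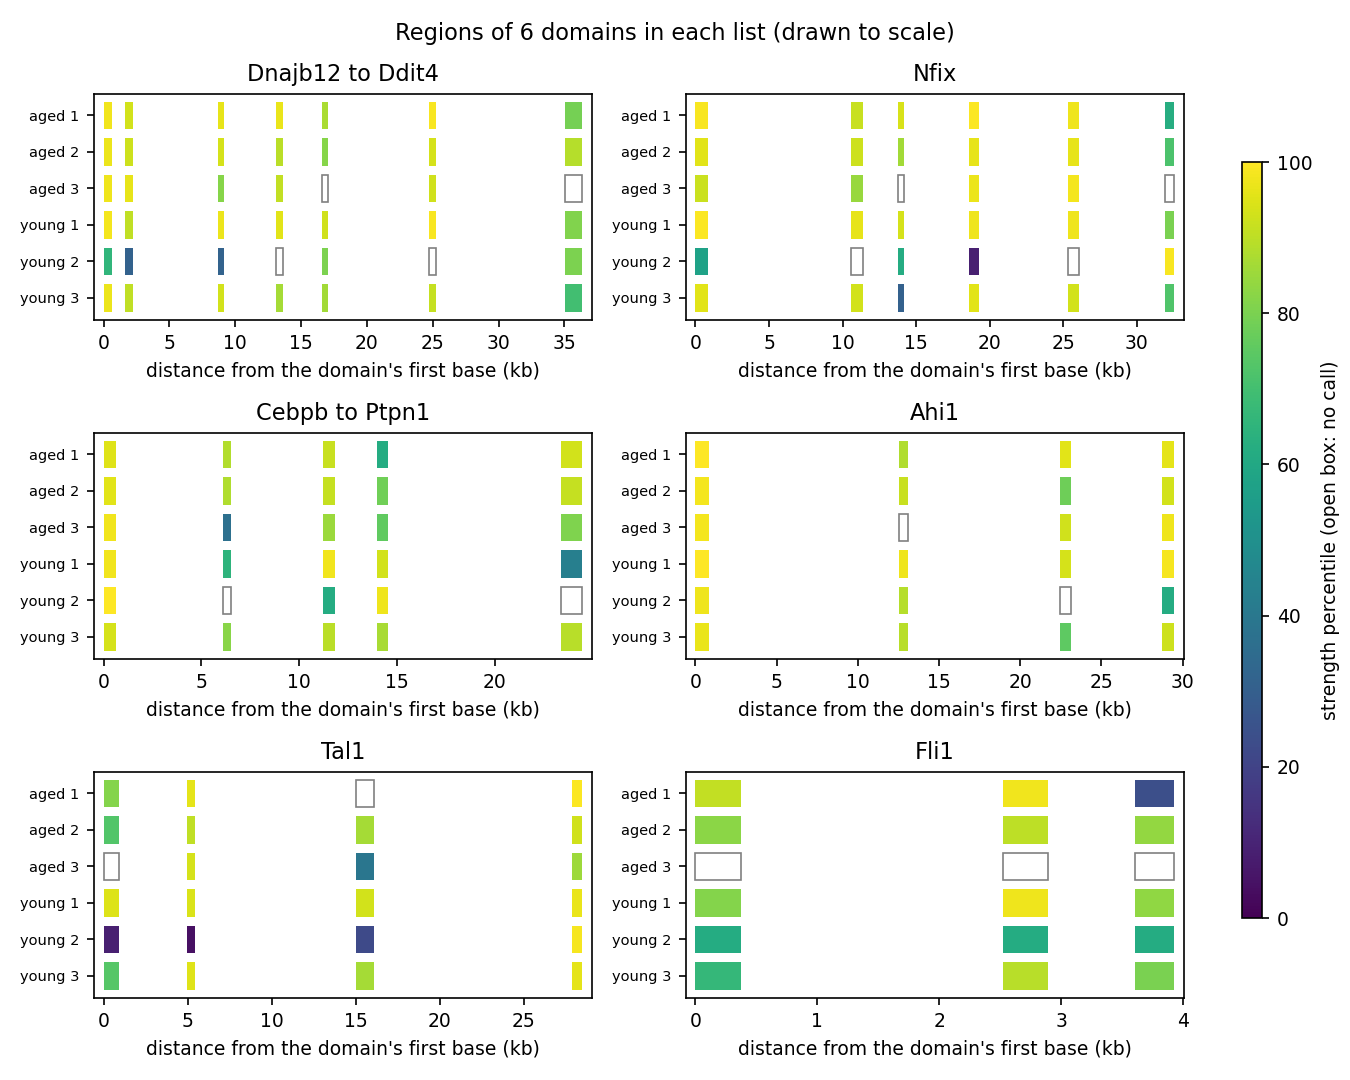
Position of the member regions of 6 domains, as distance in kb from the domain's first base, in the 6 lists (rows), coloured by strength percentile, with open boxes where a list had no call. Missing calls lie in aged replicate 3 and young replicate 2, with 1 in aged replicate 1 at Tal1, and all 3 Fli1 regions are open boxes in aged replicate 3.

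Itgb3, the integrin beta-3 subunit of platelets and some stem cells, was the only gene of the 8 lists that more than 1 domain overlapped. The larger had 4 regions, at 94.3, 91.0 and 87.2 in the aged and 87.6, 88.6 and 89.4 in the young lists (chr11:104590088-104612086). The smaller had 3, at 94.5, 90.1 and 88.1 in the aged and 83.1, 42.7 and 90.4 in the young lists (chr11:104637022-104647616). Aged and young values overlapped in both domains. Kit, the stem cell factor receptor, lay 169469 bp and Kdr, a receptor of endothelial cells, 96666 bp from the 3 regions between them (chr5:75826191-75836161). Cxcr4, which holds stem cells in the marrow, lay 112684 bp from a domain of 3 regions on chromosome 1. Jam2, an adhesion molecule, had no region called in young replicate 2 and all 3 called elsewhere, at 87.5, 82.9 and 66.5 in the aged and 80.6 and 78.0 in the other young lists.

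Lineage genes were few. Cebpb, a factor of myeloid cells, was the next gene on one side of a domain of 5 regions at a distance of 63419 bp (chr2:167753851-167778330). It stood at 91.7, 91.1 and 80.6 in the aged and 93.0, 61.5 and 89.1 in the young lists, and the Gm32287 stretch printed above lies in its last region, which young replicate 2 did not call. Zfpm1, the partner of Gata1 in red cell and platelet precursors, had 3 regions (chr8:122274837-122294587) at 94.5, 93.3 and 91.4 in the aged and 95.6, 12.9 and 92.9 in the young lists. Gata3, a factor of T cells that is also active in blood stem cells, had 3 regions (chr2:9870859-9879905) at 59.8, 82.5 and 90.3 in the aged and 92.8, 22.4 and 77.0 in the young lists. Aged and young values overlapped in all 3 domains.

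An accessible gene end went along with some of the overlapped genes and not with others. Of 162, 73 (45.1%) had a peak within 1 kb of an end in all 6 lists, beside 35.9% of all autosomal protein-coding genes. With genes cut by length into 4 classes of equal size, the longest class held 100 of the 162, and 48% of those had such a peak beside 39.7% of all genes of that class. In the next class it was 43.1% of 51 beside 43.8%, in the one below 20% of 10 (2 genes) beside 38.6%, and the shortest class held 1 of the 162, which had such a peak, beside 21.7%. At the other extreme, 7 of the overlapped genes had no end called in any list: Ldb1, Camkk1, Ldha, Map3k1, Mcl1, Ntpcr and Ubtf. Ldb1, which encodes the adaptor that joins Tal1 to other factors, was the case printed above: both of its stretches end at annotated starts inside the gene's span, and the 2 regions that hold them were called in all 6 lists. The inner one stood at 98.1, 98.1 and 96.8 in the aged and 99.2, 99.6 and 98.7 in the young lists, so 2 of the 4 regions of this domain (chr19:46039402-46050959) were open starts of Ldb1 by the annotation. For Camkk1, Ldha and Ubtf too, a member region called in all 6 lists overlapped the 250 bases before an annotated start, and for Map3k1 and Ntpcr one called in 5 did, so an uncalled end did not mean an uncalled start in 6 of the 7 genes.

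Non-coding genes overlapped many domains. LncRNA genes did so in 94 of the 252. Mir21a, the gene of a microRNA raised in many inflamed tissues, lay within the span of a domain of 3 regions at Vmp1, but outside the regions themselves. Clusters of tRNA genes filled 2 domains on chromosome 13, with 10 in the one between Abt1 and Btn1a1 and 3 in the one between Olfr1368 and Trim27. Members at tRNA genes are distal only because the rule counted protein-coding genes.

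Age was compared over the lists, with 1 value a list. The 3 aged lists placed 0.474%, 0.863% and 0.709% of their autosomal peaks in domains, and the 3 young lists 0.425%, 0.382% and 1.03%. These were 1112, 1080 and 890 peaks of 234785, 125193 and 125555 in the aged lists. In the young lists they were 1074, 925 and 1109 of 252914, 242417 and 107804. List length varied more than the peaks in domains, so the share largely follows it. Means were 0.682% ± 0.196 in the aged and 0.612% ± 0.362 in the young lists (SD over n = 3 lists an age). The median strength percentile of member regions was 94.2, 90.2 and 75.7 in the aged and 94.6, 53.5 and 88.6 in the young lists, or 86.7 ± 9.73 and 78.9 ± 22.2 (SD over n = 3 lists an age). These percentiles count a missing call as 0, and over called regions alone aged replicate 3 stood at 85.8 and young replicate 2 at 73.1. The median fold enrichment of called regions ordered the lists differently. It was 5.51, 8.10 and 4.12 in the aged and 5.52, 2.83 and 8.77 in the young lists. The part of list length in the percentiles was not tested. The share of member regions called was 93.0% ± 10.5 in the aged and 87.5% ± 18.9 in the young lists (SD over n = 3 lists an age). Each domain held 4.08 ± 0.476 peaks in the aged and 4.11 ± 0.388 in the young lists (SD over n = 3 lists an age). In all 4 measures the values of the ages overlapped and the difference was smaller than the spread between lists. No p-value is given, because the calls in these lists chose the members. Young replicate 2 set a direction: over the same 836 members without it, aged minus young went from 7.86 to -4.84 percentile points and from 5.54 to -5.36 percentage points of regions called. With domains built anew from the 5 other lists, 3 of the 4 differences turned: the percentile to -17.7 points, regions called to -12.7 percentage points, and the share of peaks from 0.0701 to -0.215 percentage points. That rebuilding still allowed 1 missing list, and aged replicate 3 called the fewest kept regions of the lists left. Regions it lacks thus entered as members, so the turns in percentile and regions called were in part set by construction. Nothing is read from them. Aged replicate 3 moved the differences the other way. Over the 836 members without that list instead, they were 13.4 percentile points and 11.6 percentage points of regions called.

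**Figure D4:**
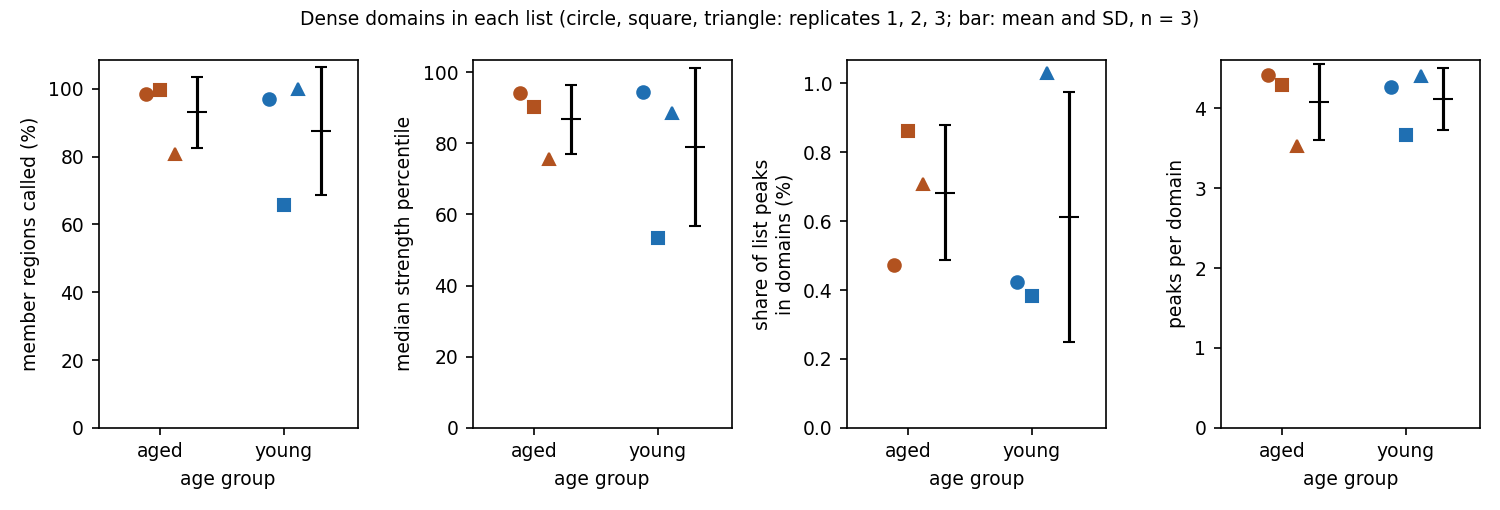
Values of the 6 lists for member regions called, their median strength percentile, the share of a list's peaks in domains and the number of peaks per domain. Symbols are lists and black bars are means with SD (n = 3). Aged and young points overlap in each panel, with young replicate 2 lowest in the first 3.

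Of the 252 domains, 13 (5.16%) were called in full in all 6 lists. The same held for 132 of the 865 pairs (15.3%) and for 33.1% of all joined groups, most of which hold a single region. A call in full asks for more regions in a larger group, and nothing is read from the difference. The 13 were led by a domain between Chd2, a chromatin remodeller, and Fam174b (chr7:73595002-73618949), with medians of 99.5, 99.6 and 99.2 in the aged and 99.6, 99.3 and 99.3 in the young lists. Ccnd3, the cyclin D3 gene (chr17:47507775-47522150), was next at a mean of 98.4. Sema4b was the only one of the 13 with 4 regions. The others were Haao to Zfp36l2, Plec, Zfp710, Grk2, Lrrc74a to Irf2bpl, Egfl7 (the host gene of the microRNA Mir126a), Ssh1, Irf2bp2 to Tomm20, Klf10 to Azin1, and Stk10. Over the 4 lists other than aged replicate 3 and young replicate 2, 210 domains were called in full. Of the 489 members with a missing call, 160 lacked it in aged replicate 3 and 287 in young replicate 2. A high count over the 4 lists was thus largely set by construction. No count over pairs or all joined groups is given beside the 210, and nothing is read from it. Domains without a single call numbered 5 in aged replicate 3 (Mef2c, Fli1, Ampd3 with Rnf141, Lrrc74a to Irf2bpl, and Abca1 to Slc44a1) and 6 in young replicate 2, Jam2 and Ttc28 among them, and 0 in each other list. Lrrc74a to Irf2bpl occurs in both statements because 2 domains lie between these genes.

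Single domains were then set side by side by age, as the median percentile of their regions in each list. In 8 domains (3.17%) all 3 aged values were above all 3 young values, beside 3.76% of the 7744 joined groups. In 2 domains (0.794%) all young values were above all aged values, beside 1.67%. Both shares were under the background. Thnsl1, a gene related to threonine synthases, had the widest gap, at 92.5, 89.4 and 65.9 in the aged and 45.7, 0 and 46.7 in the young lists (chr2:21222821-21237529). In Nek6, a mitotic kinase, and Sbno2, a co-regulator in inflammation, young replicate 2 was at 0. The other 2 young lists were at 94.9 and 95.1 in Sbno2, just under its lowest aged value of 95.2, and at 90.4 and 89.0 in Nek6, under its lowest aged value of 91.7.

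The other aged-higher domains the naming rule took were Arhgef10l to Rcc2, at 96.8, 91.9 and 95.7 in the aged and 89.9, 30.7 and 88.3 in the young lists, and Cubn, at 94.1, 95.5 and 93.8 in the aged and 89.2, 42.7 and 90.9 in the young lists. Cubn encodes an uptake receptor of kidney and gut. The young-higher pair differed little: Ccnd3 stood at 97.6, 98.0 and 98.2 in the aged and 99.3, 99.2 and 98.3 in the young lists, and Zfp710 at 95.9, 95.6 and 94.0 in the aged and 96.3, 98.1 and 96.1 in the young lists. Ranked by fold enrichment in place of −log10 p, 7 domains were aged-higher and 0 young-higher. With peaks at q 0.05 the domains of Thnsl1, Sbno2, Arhgef10l to Rcc2, Cubn and Ccnd3 had under 3 joined regions, as did those of Zfpm1, Gata3, Jam2 and the smaller one of Itgb3.

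Across all 252, 182 had the higher mean in the aged and 70 in the young lists, with a median difference of 11.2 percentile points, beside 5.96 over all joined groups. Over the 4 lists other than aged replicate 3 and young replicate 2 the median difference was 0.73 points, with 157 domains higher in the aged and 95 in the young lists. No values over all joined groups are given beside these counts of domains or beside the 0.73 points. Nothing particular to the domains is read from them.

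**Figure D5:**
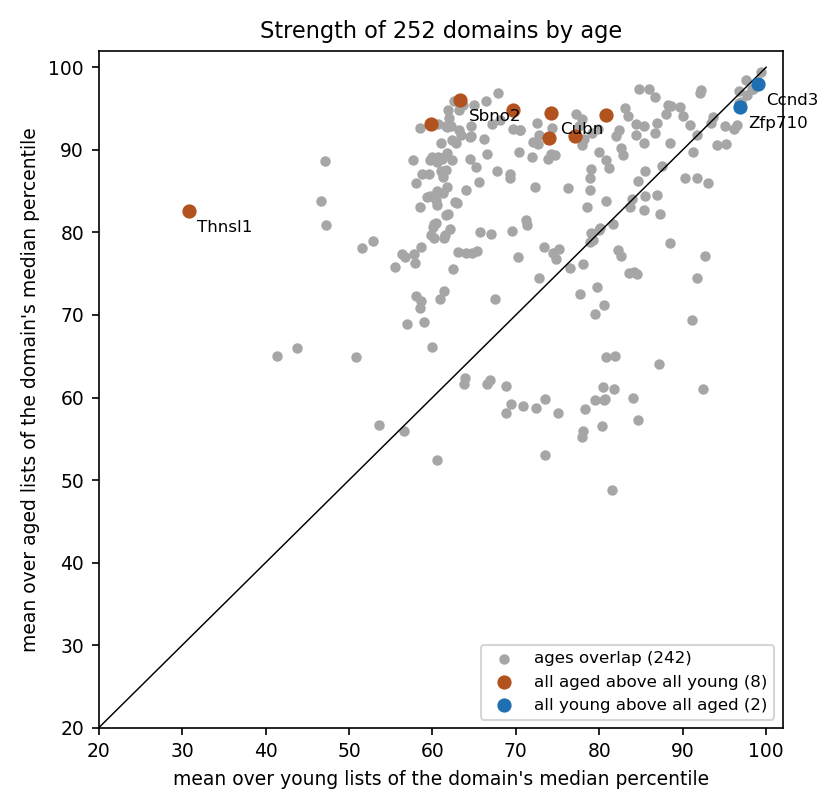
Each point is 1 of the 252 domains, with the mean over the 3 young lists (horizontal) and over the 3 aged lists (vertical) of the median strength percentile of its regions. Orange points (8) have all aged lists above all young lists, blue points (2) the reverse, grey points (242) overlap, and the line marks equality.

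Weaker regions also lay in the spans of the domains. There were 899 that only 1 to 4 lists had called, 695 of them in 1 list. All 3 aged lists and no young list called 1 of the 899, and all 3 young lists and no aged list called 1. No share over all merged regions called in 1 to 4 lists is given beside these counts, so nothing is read from them. Of the 62 called in 4 lists, 36 were missing in both aged replicate 3 and young replicate 2, which called the fewest members. A further 22 regions called in 5 or 6 lists lay within the spans but within 2 kb of a gene end, and the rule left them out of the domains.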

How the data were processed

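ATAC-seq peak lists of 6 samples were used, 1 per sample, grouped by the titles. Per the submitters' processing notes, Bowtie2, SAMtools, Picard and MACS2 were used with mm10; versions, roles, parameters, depth and any transposase shift: not given in the sources used here. The deposited lists have no header. From the values, they hold peak positions, a deposited score (10 times the −log10 p, capped at 1000), a deposited fold enrichment (a ratio over background), and deposited −log10 p and −log10 q values. All listed peaks had p of at most 0.01, so weak peaks are included. Peaks were called per sample.

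Rows with the same interval were merged. Genes, their ends and start sites came from RefSeq tables on GRCm38.p6, which mm10 names. Strength percentiles are ranks within a list, ties averaged. Members and gene lists were chosen with earlier results of these data known. Named were the 15 domains with most regions, all domains at stem-cell regulators, up to 4 per other list and up to 5 per direction without overlap by age; others were chosen with their values in view. Ages were compared by 1 value per list; planned permutation tests on these values are not reported, since calls in the same lists chose the members. Joining and counting were tested on simulated lists. Python 3.11.15, NumPy 2.4.6, pandas 2.3.3, SciPy 1.17.1 and Matplotlib 3.10.9 were used. Alternatives varied the gap, distance, calls, size, q, summits, ranking and lists.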

Additional observations from a re-analysis of the deposited data

Results flagged for a closer look

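The X chromosome was outside the rule. Joined in the same way, its 161 kept distal regions gave 4 domains with 18 regions, drawn from data the comparisons above did not use. One, between Olfr1324 and Stk26, held 8 regions, more than any autosomal domain (X:50591302-50620469). Its regions were called 7, 8 and 6 times in aged and 6, 6 and 8 times in young lists. The others lay in Elf4, an ETS factor gene that promotes cycling of blood stem cells, between H2al1j and Bcor, and between Mid1 and Asmt. Their part in the comparison by age was not tested.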

How the results depend on the processing

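The number of domains and the number of regions in them followed the settings: 55 and 173 with a joining gap of 5 kb, 420 and 1484 with 20 kb, 25 and 76 with calls asked in all 6 lists, 56 and 248 with at least 4 regions, 91 and 298 with peaks at q 0.05. Domains without overlap between ages, 10 in all, then numbered 4 (5 kb), 2 (all 6 lists), 3 (at least 4 regions) and 5 (q 0.05). No shares over all joined groups are given for these settings. Regions called in all 6 lists fell to 34.6% at q 0.05. Calls in all 6 lists make the shares called fixed by construction, so no value is given there. The difference in peaks per domain, -0.034 as reported, turned to 0.23 (5 kb), 0.067 (all 6 lists), 0.042 (at least 4 regions), 0.344 (q 0.05) and 0.045 (summit windows).

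Leaving out 1 list, the rule allowed 1 missing list of 5, so counts rose by construction. Domains ran from 266 to 732 (without aged replicate 3) and 690 without young replicate 2, and regions from 892 to 2576. Regions called in all lists ran from 38.4% to 47.9%. Non-overlapping domains ran from 16 to 112. With 2 lists in 1 age, a lack of overlap arises more often by order alone, and nothing is read from these counts. The differences below carry a like limit. The list still allowed to be missing shapes which members enter, so nothing is read from their signs. Differences, aged minus young, ran from -0.215 to 0.296 percentage points for the share of peaks (negative without aged replicate 2, young replicate 1 or young replicate 2, at -0.021, -0.03 and -0.215), from -17.7 to 30.1 percentile points, from -12.7 to 16.5 percentage points of regions called, and from -0.432 to 0.431 peaks per domain (positive without aged replicate 3, young replicate 1 or young replicate 3, at 0.431, 0.048 and 0.065).

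Over the 4 lists other than aged replicate 3 and young replicate 2 there were 1633 domains with 6137 regions. That choice of lists was made after seeing the data. All of these lists called 60.3% of the regions, and differences were -0.199 (share of peaks) and 0.158 (peaks per domain). Ages did not overlap in 451 of the domains. With 2 lists an age, a lack of overlap arises more often by order alone than with 3. No share over all joined groups is given for this setting, so nothing is read from the 451. Of 36 named domains, 22 lost the size of 3 regions at a 5 kb gap, 28 with calls in all 6 lists and 14 at q 0.05. The same held for 9 at over 5 kb from gene ends, 2 with summit windows, and 0 when any 1 list was left out. The 0 was largely set by construction, because 1 missing list was still allowed among the lists that remained.

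Same-numbered aged and young samples share a number after "exp" in their titles that the labels do not explain. Their deviations from the group means over 3441 regions correlated at 0.046, -0.018 and -0.022, under 0.1, so the numbers were not taken as pairs. With the replicate number as a block, the differences were the same by construction: 0.0701 for the share of peaks, 7.86 for the percentile, 5.54 for the share called and -0.034 for peaks per domain. Depth is unknown and limits every missing call.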
